A study of Mus musculus with 15 samples.

Results

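Hox genes of the HoxA, HoxB and HoxD clusters were examined in 15 bulk RNA-seq libraries of mouse muscle stem cells (MuSCs) and whole quadriceps muscle. The members were the genes whose symbol is Hoxa, Hoxb or Hoxd followed only by a number, 30 of the 56953 genes in the deposited tables, of which 11 lie in HoxA, 10 in HoxB and 9 in HoxD. All libraries came from wild-type mice of strain 129, labelled as 10-week-old males. MuSCs, the resident stem cells that repair muscle fibres, were taken by biopsy from mice 5, 6 and 11 before they received their own MuSCs back (MuSC before, n = 3), and again after this autologous transplantation (MuSC after, n = 3). Quadriceps femoris was taken from 6 transplanted mice (numbers 4, 5, 6, 11, 14 and 94) and from 3 mice that had sham surgery (3, 12 and 192). The labels do not say how the MuSCs were sorted, how many were given back or how long after surgery the samples were taken. The muscle that the MuSC biopsies came from is not stated here. Each library is called by its group and its mouse, as in after 6 for the MuSCs of mouse 6 after transplantation.

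Hox genes encode homeodomain transcription factors that give cells along the body axis and the limb their position. Within a cluster, genes of low paralogue number are active towards the head and those of high number towards the tail and, in HoxA and HoxD, towards the tip of the limb, and genes with the same number in different clusters are copies of a common ancestor. Adult cells often keep part of the Hox pattern of the place where they arose, and muscle stem cells descend from somite cells that migrate into the limb bud.

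The promoters of 3 members are shown because these genes carry the main patterns described below: Hoxa11 was abundant in MuSCs and near 0 in whole muscle, Hoxb8 was abundant in a single MuSC library, and Hoxd8 was abundant in whole muscle. Each sequence runs 5′ to 3′ from 250 bases before to 50 bases after the RefSeq start (build GRCm38.p6). Capitals mark every match, on either strand, to the TATA box letters TATAAA, the CCAAT box letters CCAAT and the GC box letters GGGCGG. The Hoxa11 window is chr6:52245761-52246060 on the minus strand, the Hoxb8 window chr11:96281655-96281954 on the plus strand and the Hoxd8 window chr2:74704365-74704664 on the plus strand.
Hoxa11: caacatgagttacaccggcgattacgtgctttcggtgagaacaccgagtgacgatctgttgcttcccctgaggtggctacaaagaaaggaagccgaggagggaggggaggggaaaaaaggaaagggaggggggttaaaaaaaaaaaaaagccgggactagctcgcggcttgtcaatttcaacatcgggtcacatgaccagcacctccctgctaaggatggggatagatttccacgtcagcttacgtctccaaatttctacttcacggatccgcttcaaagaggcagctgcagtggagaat
Hoxb8: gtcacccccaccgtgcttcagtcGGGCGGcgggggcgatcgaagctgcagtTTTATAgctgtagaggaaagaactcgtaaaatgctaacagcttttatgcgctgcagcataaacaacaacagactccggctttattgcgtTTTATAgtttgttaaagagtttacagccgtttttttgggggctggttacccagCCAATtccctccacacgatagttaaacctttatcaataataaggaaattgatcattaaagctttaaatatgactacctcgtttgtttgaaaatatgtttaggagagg
Hoxd8: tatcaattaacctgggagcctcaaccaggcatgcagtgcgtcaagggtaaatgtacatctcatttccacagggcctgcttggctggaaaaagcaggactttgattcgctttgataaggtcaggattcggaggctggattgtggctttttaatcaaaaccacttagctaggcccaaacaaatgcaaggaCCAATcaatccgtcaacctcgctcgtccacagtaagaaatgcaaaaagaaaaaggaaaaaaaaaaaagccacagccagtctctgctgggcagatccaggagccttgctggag
The Hoxb8 window held 2 TATAAA matches, 1 CCAAT match and 1 GGGCGG match, the Hoxd8 window held 1 CCAAT match, and these letters are not in the Hoxa11 window. Among all 32851 promoters of the table, 13.6% held TATAAA, 37.4% CCAAT and 35.7% GGGCGG. The windows held 15 CpG dinucleotides in Hoxa11, 13 in Hoxb8 and 6 in Hoxd8, against a median of 7 over all promoters. RefSeq windows matched 21 of the 30 members, and their 23 windows had a median of 15 CpG.

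Total estimated counts were 17.09 to 22.98 M per library (M for mega), and 17809 to 20200 genes had at least 1 count. The MuSC libraries held 285 to 459 TPM (a level scaled for gene length and for the library's total) summed over 6 MuSC markers, with Pax7 at 11.8 to 21.6 TPM, but Calcr, a marker of quiescent satellite cells, was at 0.03 TPM or less. The defining markers Dcn and Dpp4 of fibroadipogenic cells, Adgre1 and C1qa of macrophages, Tnmd and Fmod of tenocytes and Sox10 of Schwann cells were at 0 in all 6 MuSC libraries. Other genes of these lists were present: the tendon factors Scx and Mkx were at 43.1 to 73.3 and 0.37 to 2.99 TPM, against 2.47 to 5.39 and 0.02 to 0.55 TPM in muscle, Cd68 of macrophages was at 2.02 to 5.14 TPM, Ly6a of fibroadipogenic cells at 3.54 to 54.2 TPM, and Acta2, a smooth muscle actin also made by activated myogenic cells, at 172 to 1055 TPM. The part of other cell types in the Hox levels was not tested. The label of male was not borne out in 14 of the 15 libraries. In these, Xist, the RNA that silences an X chromosome in females, was at 2.63 to 84.1 TPM. In transplanted 4 Xist was at 0.01 TPM. Of 4 Y-linked genes none exceeded 0.16 TPM in any library, transplanted 4 included. The description labels of the MuSC libraries come in a pair of naming forms, with the mouse number first (before 5, before 11 and after 5) or the letter first (before 6, after 6 and after 11), and the summed FPKM (fragments scaled for gene length and for the number mapped) of the first kind was 791 to 807 k (k for kilo) against 979 to 995 k. Between the forms, 3 of 14 members tested, Hoxa3, Hoxa5 and Hoxa6, did not overlap on library-scaled counts and were higher in the number-first libraries, where 28.2% of all 13512 genes tested did the same. This test between the forms was added after the data had been seen. Beside the group in the model, edgeR called the naming form in none of the 13512 genes (0.0%, smallest adjusted p of a member 0.0944), with 5562 genes (41.2%) and 2 of the 14 members at an unadjusted p under 0.05.

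In MuSCs the HoxA cluster had the highest summed level of the 3 clusters (HoxC genes are not part of these sums), and within it a block from Hoxa7 to Hoxa11 stood far above the rest. Summed over its 11 genes, HoxA reached 102 ± 17.4 TPM before (SD, n = 3) and 79.3 ± 20.0 TPM after (n = 3). It made up 90.2% to 98.3% of the summed level of the 3 clusters in the libraries before and 57.7% to 91.4% in those after, the lowest share being that of after 6. Hoxa7, Hoxa9, Hoxa10 and Hoxa11 alone held 50.7% to 82.9% of the Hox level in the 6 MuSC libraries. Their share was 44.6% to 59.1% in transplanted and 50.3% to 57.6% in sham muscle. In MuSCs a step in level fell between Hoxa6 and Hoxa7, and another between Hoxa11 and Hoxa13.

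Hoxa9 (ENSMUSG00000038227.16), which acts in the posterior trunk and the limb, was at 24.1, 20.2 and 29.3 TPM in before 5, 6 and 11 and at 21.3, 18.9 and 14.9 TPM in after 5, 6 and 11. Hoxa10 (ENSMUSG00000000938.12), active in the upper hindlimb, was at 25.8, 20.3 and 22.6 TPM before and 26.4, 21.6 and 15.3 TPM after, in the same order of mice. Hoxa7 (ENSMUSG00000038236.9), a trunk gene, was at 23.9, 21.1 and 25.4 TPM before and 18.6, 17.6 and 13.5 TPM after. The means of Hoxa7, Hoxa9 and Hoxa10 lay within 1 SD of each other in the group before, and after 11 was the lowest library for all 3. Hoxa11 (ENSMUSG00000038210.11), which patterns the middle limb segment, was at 13.6, 9.66 and 20.1 TPM before and 11.4, 10.8 and 10.6 TPM after, with the groups overlapping. Hoxa13, the gene of the hand and foot, was at 0 to 0.13 TPM in every MuSC library.

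Towards the other end of the cluster, Hoxa2, a hindbrain and branchial arch gene, was at 0.11 to 1.07 TPM in the 6 MuSC libraries. Hoxa5 ranged over 1.31 to 5.49 TPM, Hoxa3 over 0.21 to 2.97, Hoxa6 over 0.65 to 2.88 and Hoxa4 over 1.57 to 2.47 TPM. For Hoxa3, Hoxa5 and Hoxa6 the number-first libraries were the high ones in both groups, while Hoxa4 differed little across all 6. In the deposited tables the Hoxa3 gene span overlaps those of Hoxa4, Hoxa5 and Hoxa6 on the same strand, and Hoxa11 overlaps the antisense RNA Hoxa11os. Hoxa11os was at 9.45 to 17.1 TPM in MuSCs, and no source used here says if the counting used strand, so the division of reads between these partners is uncertain.

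**Figure D1:**
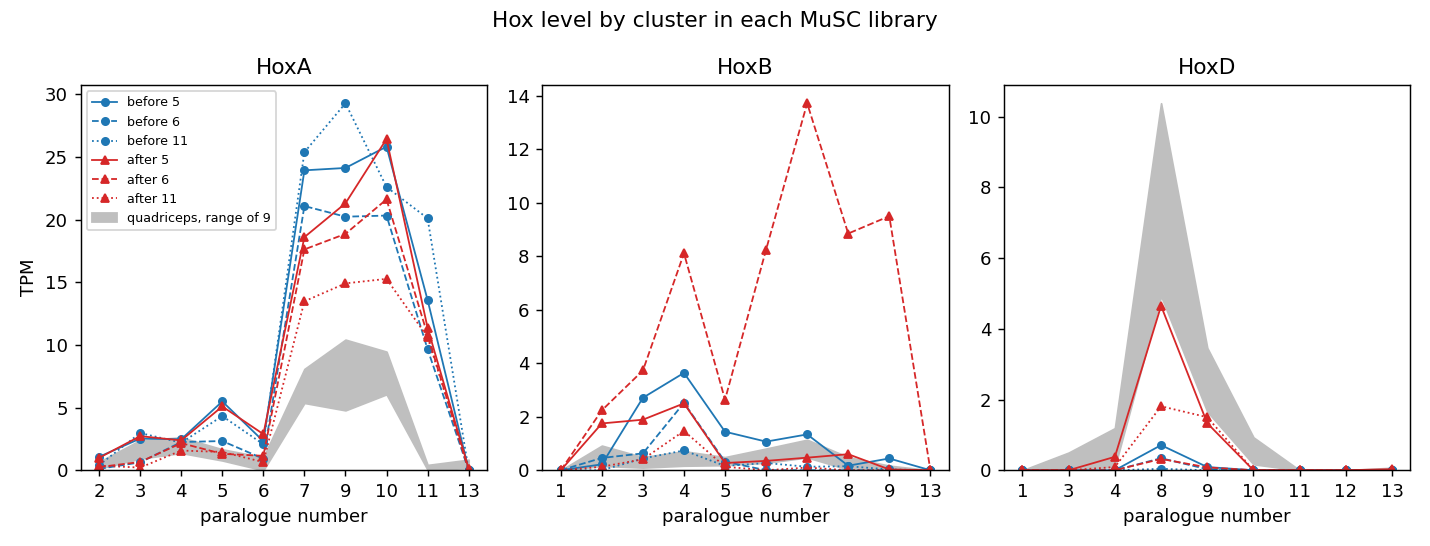
Level in TPM (vertical axis) of genes of HoxA, HoxB and HoxD by paralogue number (horizontal axis, with a separate vertical scale in each panel) in the 6 MuSC libraries, with the range of the 9 quadriceps libraries in grey. Hoxa7 to Hoxa10 stand at 13.5 to 29.3 TPM in all MuSC libraries, after 6 stands apart in HoxB, and after 5 and after 11 are the only MuSC libraries above 0.71 TPM for Hoxd8.

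HoxB genes were low in 5 of the 6 MuSC libraries and high in after 6. The summed HoxB level was 57.1 TPM in after 6, against 11.0 TPM in before 5, 7.86 TPM in after 5, 3.93 TPM in before 6, 2.24 TPM in after 11 and 1.92 TPM in before 11. HoxB made up 42.0% of the Hox level in after 6 and 1.64% to 9.18% in the other MuSC libraries. Without after 6, the mean HoxB level of the group after was 5.05 TPM in place of 22.4 TPM.

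The gap widened towards the high paralogue numbers. Hoxb9 (ENSMUSG00000020875.10), a thoracic-level gene, had 455 counts in after 6 (9.50 TPM), 16 in before 5 and at most 1 in the remaining 4 MuSC libraries, so that after 6 was 21.6 times the next highest library in TPM. Hoxb8 was at 8.85 TPM in after 6 and at most 0.60 TPM in the others, 14.8 times the next, and Hoxb7 at 13.7 TPM against at most 1.34 TPM, 10.2 times the next. Hoxb6 was at 8.25 TPM against at most 1.07 TPM, 7.71 times the next. Hoxb6 to Hoxb9 thus stood high together in after 6 alone, in a stretch of 4 adjacent genes. Lower in the cluster the gap closed: Hoxb4, a gene of the neck region, was at 8.11 TPM in after 6 but also at 3.64, 2.52 and 0.74 TPM in before 5, 6 and 11 and at 2.5 and 1.47 TPM in after 5 and 11. Hoxb3 was at 3.73 TPM in after 6 and 2.71 TPM in before 5, its next highest library, and Hoxb2 at 2.24 TPM in after 6 and 1.75 TPM in after 5. Both overlap the antisense RNA Hoxb3os, so the division of their reads is uncertain. Hoxb3os was at 1.53 TPM in after 6 and at most 0.77 TPM in the other MuSC libraries. Hoxb5 reached 2.64 TPM in after 6 and at most 1.44 TPM elsewhere. Hoxb1 had no count in any of the 15 libraries and Hoxb13 had 1 count, in after 6.

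Beside this, the summed markers of endothelial and of fibroadipogenic cells were lowest in after 6, at 0.27 TPM (0.27 to 1.75 over the 6 MuSC libraries) and 3.66 TPM (3.66 to 55.4). Those of Schwann cells came to 0.59 TPM (0.51 to 2.06), macrophages to 2.31 TPM (2.27 to 5.23), tenocytes to 56.4 TPM (44.0 to 74.9), mural cells to 739 TPM (172 to 1060) and muscle fibres to 5077 TPM (895 to 12170), none of these sums the highest of the 6. The mural sum was almost all Acta2 (737 TPM), and the mural marker Cspg4 was highest in after 6, at 1.31 TPM against 0.03 to 0.91 TPM in the others. Adipocyte markers summed to 0.09 TPM, from Adipoq, against 0 in the other MuSC libraries. The MuSC markers summed to 370.5 TPM in after 6, within the range of the others.

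HoxD genes were almost silent in MuSCs. Hoxd1, Hoxd3, Hoxd10, Hoxd11 and Hoxd12 had no count in any of the 6 MuSC libraries, and Hoxd13, the digit gene, had 1 count, in after 5. Each group total of 0 is compatible with up to 3 counts over its 3 libraries, a limit for counting error only. Hoxd8 (ENSMUSG00000027102.5) was the exception, with 0.71, 0.34 and 0.04 TPM in before 5, 6 and 11 and 4.65, 0.32 and 1.81 TPM in after 5, 6 and 11. Its neighbour Hoxd9 (ENSMUSG00000043342.10) followed the same libraries, with 0.09, 0.03 and 0 TPM before and 1.33, 0.08 and 1.5 TPM after. Hoxd4, not tested between these groups, had 8 counts over the group after, in after 5 and after 11, and none before. That is 2.61-fold higher when the group with none is set at 3 counts in total and the 8 counts are taken as exact. After 5 and after 11, which have different naming forms, were thus the only MuSC libraries with Hoxd9 above 0.09 TPM. Hoxd4 and Hoxd8 overlap the antisense RNA Hoxd3os1, so the division of reads is uncertain for them too. Hoxd3os1 was at 0.13 TPM in after 5, 0.82 TPM in after 11 and 0 in the other MuSC libraries.

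After 5 also stood apart in genes outside the clusters. Ly6a, a surface marker shared by fibroadipogenic and endothelial cells, was at 54.2 TPM there and at 3.54 to 6.22 TPM in the other MuSC libraries, and Pitx1, a hindlimb identity factor, was at 23.1 TPM against at most 0.46 TPM. In after 11 these genes were at 6.22 and 0.02 TPM. Of the other fibroadipogenic and endothelial markers, Pdgfra (0.98 TPM), Kdr (1.34 TPM) and Tek (0.21 TPM) were also highest in after 5. Dcn, Dpp4, Dpt and Cldn5 were at 0 there, and Cd34 (0.13 TPM), Pecam1 (0.14 TPM) and Cdh5 (0.06 TPM) were higher in another MuSC library. The part of fibroadipogenic or endothelial cells in the Hoxd8 level was not tested.

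Whole quadriceps had a flatter profile, in which Hoxd8 stood beside Hoxa7, Hoxa9 and Hoxa10. In the 6 transplanted libraries Hoxd8 ranged from 4.93 to 10.4 TPM with a median of 6.92, and in the shams it was at 7.0 (mouse 3), 5.65 (12) and 9.23 TPM (192). Hoxa7, Hoxa9 and Hoxa10 lay between 4.78 and 10.4 TPM in all 9 muscle libraries, so the ranges of these 4 genes overlapped. TPM are scaled within each library, and MuSC and muscle levels come from separate deposited tables. Hoxd9 ranged from 1.66 to 3.46 TPM, Hoxa4 from 1.38 to 2.62, Hoxa3 from 0.93 to 2.40 and Hoxa5 from 0.78 to 1.67 TPM. Every HoxB gene was at 1.14 TPM or less, with Hoxb7 the highest of the cluster in 5 of the 9 libraries. Hoxa11 was at 0.04 to 0.42 TPM. Hoxa13, at 0.17 to 0.84 TPM, and Hoxd10, at 0.17 to 0.93 TPM, were detected in all 9 muscle libraries. In whole tissue, fewer cells of a type and less RNA per cell cannot be told apart.

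By cluster, HoxA made up 58.7% to 73.2% of the summed Hox level in muscle, HoxD 20.2% to 34.7% and HoxB 5.30% to 7.43%. HoxD was therefore 20.2% or more in every muscle library and 5.60% or less in every MuSC library. Counting members with a group mean of at least 1 TPM, 11 of 30 passed in MuSC before, 18 in MuSC after, 8 in transplanted muscle and 8 in sham muscle. The higher count in MuSC after includes Hoxb5 to Hoxb9, whose means rest on after 6. Hoxb1, Hoxd1, Hoxd11 and Hoxd12 had no count in any of the 15 libraries.

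In groups 9 and 10, paralogues of the same number did not share a pattern in MuSCs. In group 9, Hoxa9 was at 14.9 to 29.3 TPM in MuSCs, Hoxb9 at 0.44 TPM or less except in after 6, and Hoxd9 at 0.09 TPM or less except in after 5 and after 11. In group 10, Hoxa10 was at 15.3 to 26.4 TPM in MuSCs where Hoxd10 had no count. In group 13, all 3 members stayed at 0.84 TPM or less in every library.

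**Figure D2:**
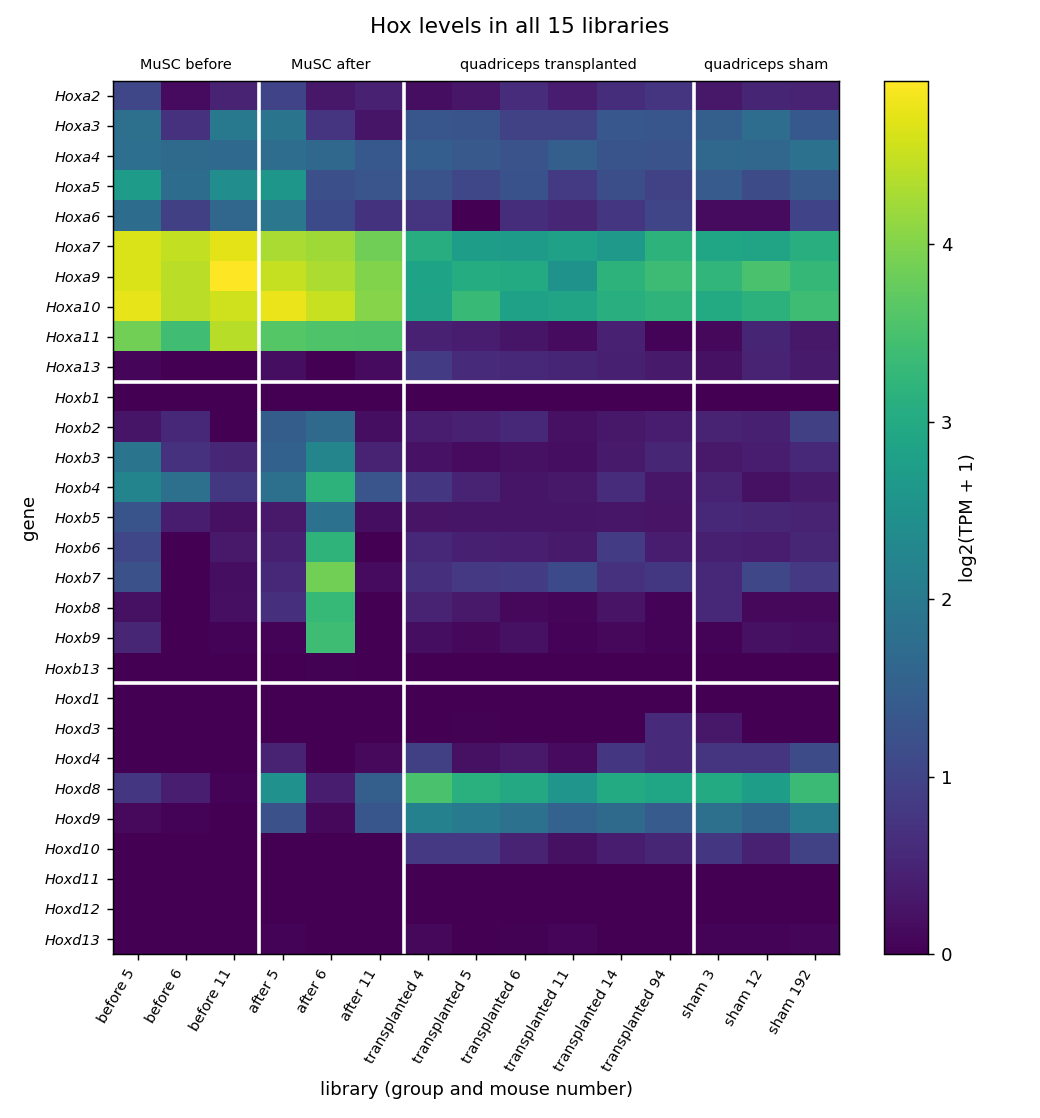
Level of the members shown (rows, by cluster and paralogue number) in the 15 libraries (columns, by group and mouse), as log2(TPM + 1) from dark (0) to bright. The band of Hoxa7 to Hoxa11 is bright in all MuSC libraries. In muscle Hoxa7 to Hoxa10 are also visible, at 4.78 to 10.4 TPM, and Hoxa11 is at 0.42 TPM or less. The Hoxb6 to Hoxb9 band marks after 6 alone. The Hoxd8 and Hoxd9 band marks all 9 muscle libraries and, more weakly, after 5 and after 11.

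**Figure D3:**
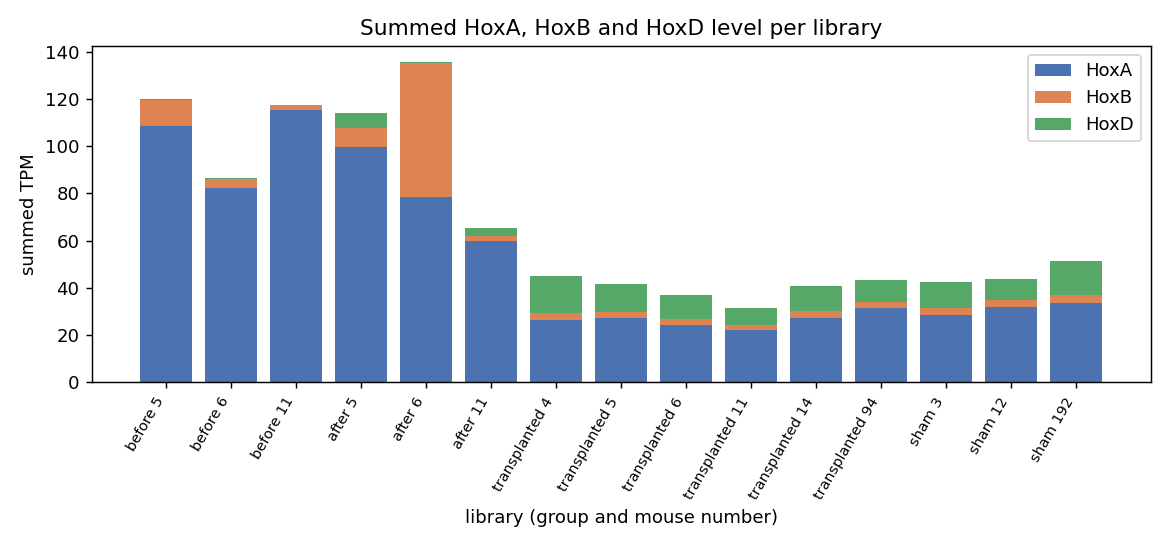
Summed TPM of HoxA, HoxB and HoxD genes (stacked bars, vertical axis) in each of the 15 libraries (horizontal axis). HoxA reaches 59.8 to 115 TPM in the MuSC libraries and 22.1 to 33.5 TPM in muscle, and HoxB is large only in after 6, at 57.1 TPM.

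The first comparison asked whether Hox genes of endogenous MuSCs differed after transplantation from before. None of the 14 members that passed the filter on low counts was called by edgeR's quasi-likelihood test at an adjusted p under 0.05, nor was any of the 13512 genes tested (0.0% called). At an unadjusted p under 0.05 the test had 305 genes (2.26%) and 1 member, Hoxd8, while DESeq2 called 16 genes (0.118%) and no member. Estimated log2 differences were positive for 7 members and negative for 7, with a median of -0.03 over the members and 0.02 over all genes tested. This balance, and the members that passed the filter, moved with single libraries: 15 were positive and 4 negative without after 11 (median 0.34), 14 and 6 without before 11 (0.38), 12 and 8 without before 6 (0.50), 10 and 8 without after 5 (0.06), 8 and 8 without before 5 (0.02) and 5 and 10 without after 6 (-0.14).

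Hoxd8 had the smallest p, with 4.25 ± 3.32 CPM after (counts scaled to a common library total, SD, n = 3) and 0.305 ± 0.251 CPM before (n = 3). Its log2 difference was 3.76 ± 1.06 (SE, edgeR adjusted p = 0.873). On scaled counts Hoxd8 was higher after in 3 of 3 mice and the groups did not overlap. In TPM the groups overlapped, with 0.32 in after 6 against 0.34 in before 6 and 0.71 in before 5, so both statements depended on the scale. Without after 5 and after 11 together, which leaves after 6 as the only library after, the difference was 1.27. In TPM after 6 was at 0.32 against a mean of 0.363 before. Hoxb2 was at 2.09 ± 1.94 CPM after and 0.335 ± 0.381 CPM before (2.67 ± 1.33, edgeR adjusted p = 0.873), higher after in 3 of 3 mice with overlapping groups, and its difference was 1.72 without after 6 and 3.94 without before 6. Hoxa9 was at 22.6 ± 2.76 CPM after and 29.4 ± 3.99 CPM before (-0.38 ± 0.26, edgeR adjusted p = 0.873), lower after in 3 of 3 mice without overlap. On scaled counts the groups did not overlap in 2 of 14 members, Hoxd8 and Hoxa9, where 6.33% of all genes did not overlap. In TPM the groups overlapped for Hoxa9 as well, at 21.3 in after 5 and 20.2 in before 6. Hoxb4 (1.07 ± 0.85) and Hoxb3 (1.06 ± 0.93), both at an edgeR adjusted p of 0.873, had overlapping groups, and without after 6 their differences turned to -0.19 and -0.04. Over the alternatives the adjusted p was 0.10 to 1 for Hoxd8 and 0.23 to 1 for Hoxb2. Hoxb6 to Hoxb9 were not tested, since their counts in a single library did not pass the filter. Hoxd9, with 4 counts before and 94 after, did not pass it either, nor did Hoxd4 and Hoxb5.

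The second comparison asked whether Hox genes of quadriceps differed between transplanted and sham-operated mice. None of 19 members tested was called, and none of 14375 genes (0.0%), with 1018 genes (7.08%) and 1 member at an unadjusted p under 0.05 in edgeR and 6 genes (0.0417%) but no member called by DESeq2. Positive differences were estimated for 9 members and negative ones for 10, with a median of -0.05 over the members and -0.001 over all genes. Without sham 192, 12 were positive and 8 negative, with a median of 0.18.

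The member with the smallest p was Hoxb5, at 0.19 to 0.23 TPM with a median of 0.21 in the transplanted libraries and 0.49, 0.44 and 0.38 TPM in shams 3, 12 and 192. These values rest on 5 to 10 counts per transplanted library and 10 to 19 per sham. On scaled counts Hoxb5 was at 0.347 ± 0.0674 CPM (n = 6) against 0.708 ± 0.269 CPM (n = 3), a log2 difference of -0.98 ± 0.39 (edgeR adjusted p = 0.686). Hoxb5 was the only member tested whose groups did not overlap, which held for 2.11% of all genes. Hoxa13 was at 0.942 ± 0.399 against 0.474 ± 0.151 CPM (0.95 ± 0.44, edgeR adjusted p = 0.714), and the library of mouse 4, with 35 counts, was its highest: without it the difference was 0.54. Hoxd4 (-0.76 ± 0.37, edgeR adjusted p = 0.716), Hoxb4 (0.77 ± 0.46, adjusted p = 0.74) and Hoxb6 (0.68 ± 0.43, adjusted p = 0.744) followed, each with overlapping groups. The abundant members moved little, with differences of 0.11 ± 0.15 for Hoxa7, -0.10 ± 0.11 for Hoxa9, -0.05 ± 0.14 for Hoxa10 and 0.20 ± 0.21 for Hoxd8. The 2 muscle tables entered with a table term, and the 1-sham table has a single sham.

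**Figure D4:**
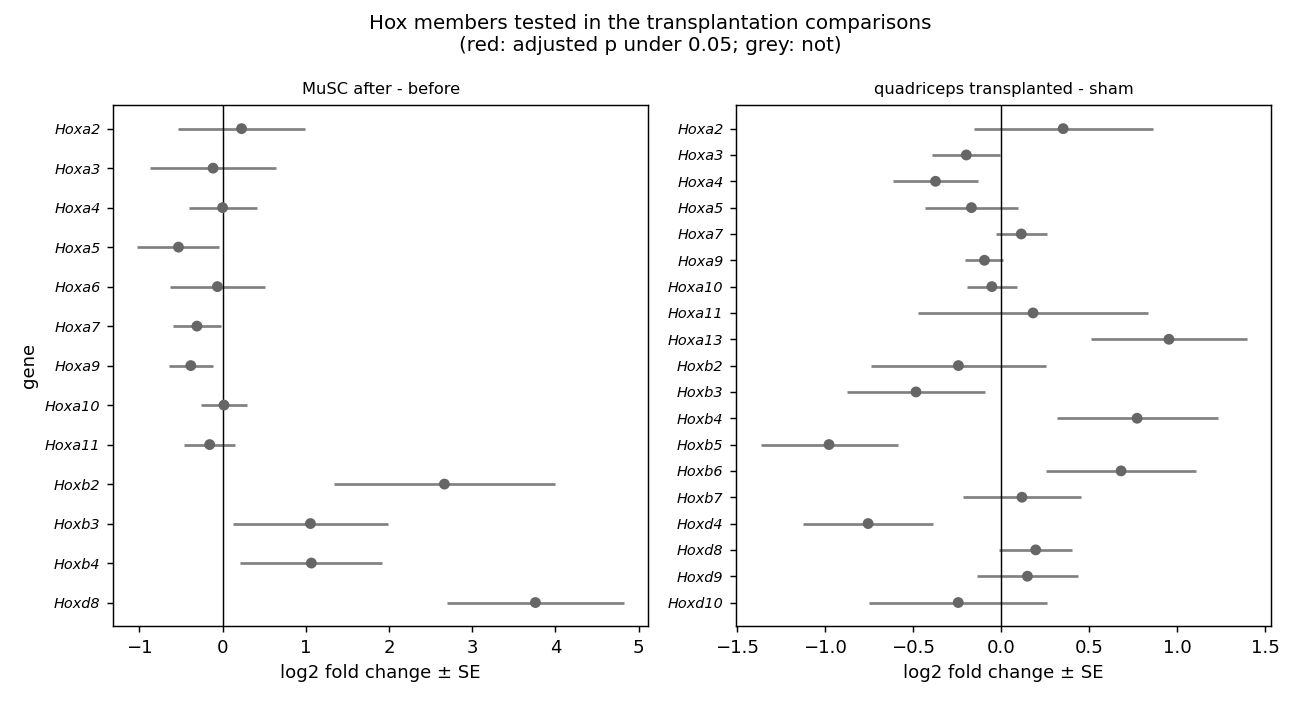
Log2 fold change with its standard error (horizontal axis) of members that passed the filter on low counts (vertical axis), for MuSC after minus before (left) and transplanted minus sham quadriceps (right). All points are grey since none passed, and Hoxd8 at 3.76 on the left and Hoxb5 at -0.98 on the right lie farthest from 0 relative to their errors.

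The third comparison set untreated MuSCs against sham quadriceps. Of 17 members tested, 6 were higher in MuSCs and 4 lower (edgeR, adjusted p under 0.05), while of all 14548 genes 68.5% were called, 35.1% higher and 33.4% lower, so the 10 members called were a share near this background. Without sham 12, 3 members were higher. The member median was 0.55 against 0.02 over all genes tested, but it turned to -0.37 without before 5, -0.09 without sham 12 and -0.45 with no filter on low counts, and was 0.09 without before 6 and 0.19 without before 11. Cells and tissue lie in separate deposited tables, so table and source cannot be told apart. The muscle of the MuSC biopsies is not stated here, so a different muscle of origin cannot be told apart from cell source either.

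Hoxa11 had the smallest p of the members, at 19.0 ± 4.78 CPM in MuSCs before and 0.487 ± 0.332 CPM in sham muscle (log2 difference 5.25 ± 0.47, n = 3 and 3, edgeR adjusted p = 1.6e-05). Hoxb4 (2.28 ± 0.67, edgeR adjusted p = 0.0138), Hoxa7 (1.10 ± 0.21, edgeR adjusted p = 0.00136), Hoxa10 (0.65 ± 0.20, edgeR adjusted p = 0.0164) and Hoxa9 (0.55 ± 0.20, edgeR adjusted p = 0.0319) were also higher in MuSCs, by less. Lower in MuSCs were Hoxd8, at 0.242 ± 0.199 against 18.4 ± 4.44 CPM (-6.18 ± 0.55, edgeR adjusted p = 1.6e-05), and Hoxd9, at 0.0502 ± 0.0505 against 5.4 ± 1.3 CPM (-6.52 ± 0.67, edgeR adjusted p = 3.8e-05). Hoxd4 had 0 counts in MuSCs before and 61 in the shams, 21.0-fold lower on the same floor of 3 counts, and passed (edgeR adjusted p = 0.000253). Hoxd10, which was not tested, had 0 and 49 counts, 16.8-fold lower on that floor. Hoxa3 passed at -1.10 ± 0.39 (edgeR adjusted p = 0.0329), but its mean TPM was 2.04 in MuSCs and 1.92 in sham muscle, so its direction depended on the scale.

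For the shared block the size also depended on the scale. In TPM, Hoxa7 was 3.46 times, Hoxa9 2.68 times and Hoxa10 2.81 times as high in MuSCs before as in sham muscle, and on scaled counts 2.14, 1.46 and 1.57 times. The calls of Hoxa9, Hoxa10 and Hoxa3 were lost under several of the alternatives (adjusted p 0.0301 to 0.116 for Hoxa9, 0.0145 to 0.0695 for Hoxa10 and 0.00791 to 0.113 for Hoxa3), and that of Hoxb4 without sham 12 (adjusted p = 0.0511).

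The same contrast was made in the transplanted mice, MuSC after against quadriceps of mice 5, 6 and 11. Of 17 members tested, 4 were higher in MuSCs and 2 lower, where of 14437 genes 58.4% were called, 31.6% higher and 26.8% lower. With the mouse as a block, 4 members were higher and 3 lower. The count higher was 2 without the muscle library of mouse 6 or of mouse 11. The count lower was 1 without the muscle library of mouse 5 or of mouse 6, 4 without after 5 or after 11 and 5 without after 6. The median difference of all genes tested was 0.11 under TMM scaling and -0.01 under size-factor scaling, and that of the members was 0.67, 0.55 under size-factor scaling, 0.29 with the mouse as a block and -0.02 without after 6.

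Hoxa11 was at 15.7 ± 2.94 CPM in MuSCs and 0.488 ± 0.216 CPM in muscle (4.99 ± 0.45, n = 3 and 3, edgeR adjusted p = 0.000177). Hoxb4 was at 6.94 ± 6.92 CPM in MuSCs and 0.821 ± 0.292 CPM in muscle (3.07 ± 0.79, edgeR adjusted p = 0.0132). Hoxb3 was at 4.17 ± 3.935 against 0.483 ± 0.109 CPM (3.09 ± 0.83, edgeR adjusted p = 0.0155). Both were higher in MuSCs in 3 of 3 mice, and after 6 was the highest MuSC library for both (8.11 and 3.73 TPM). Hoxa13 was lower in MuSCs, at 0.106 ± 0.0927 against 1.21 ± 0.101 CPM (-3.44 ± 0.81, edgeR adjusted p = 0.00886). Hoxd8 was lower at 3.13 ± 2.46 against 17.7 ± 2.92 CPM (-2.5 ± 0.73, edgeR adjusted p = 0.0217), in 3 of 3 mice. Hoxd10 had 0 counts in MuSCs and 42 in muscle, 12.1-fold lower on the floor of 3 counts. Hoxa7 (0.75 ± 0.28, edgeR adjusted p = 0.0506), Hoxd9 (-2.19 ± 0.86, adjusted p = 0.0627) and Hoxa10 (0.67 ± 0.28, adjusted p = 0.0735) did not pass. The calls of Hoxb4, Hoxb3 and Hoxd8 were lost without the muscle library of mouse 6 (edgeR adjusted p = 0.0569, 0.0533 and 0.0572). Those of Hoxb3 and Hoxd8 were also lost without that of mouse 5 (0.0646 and 0.0635), and those of Hoxb4 and Hoxb3 without that of mouse 11 (0.0531 and 0.0556).

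**Figure D5:**
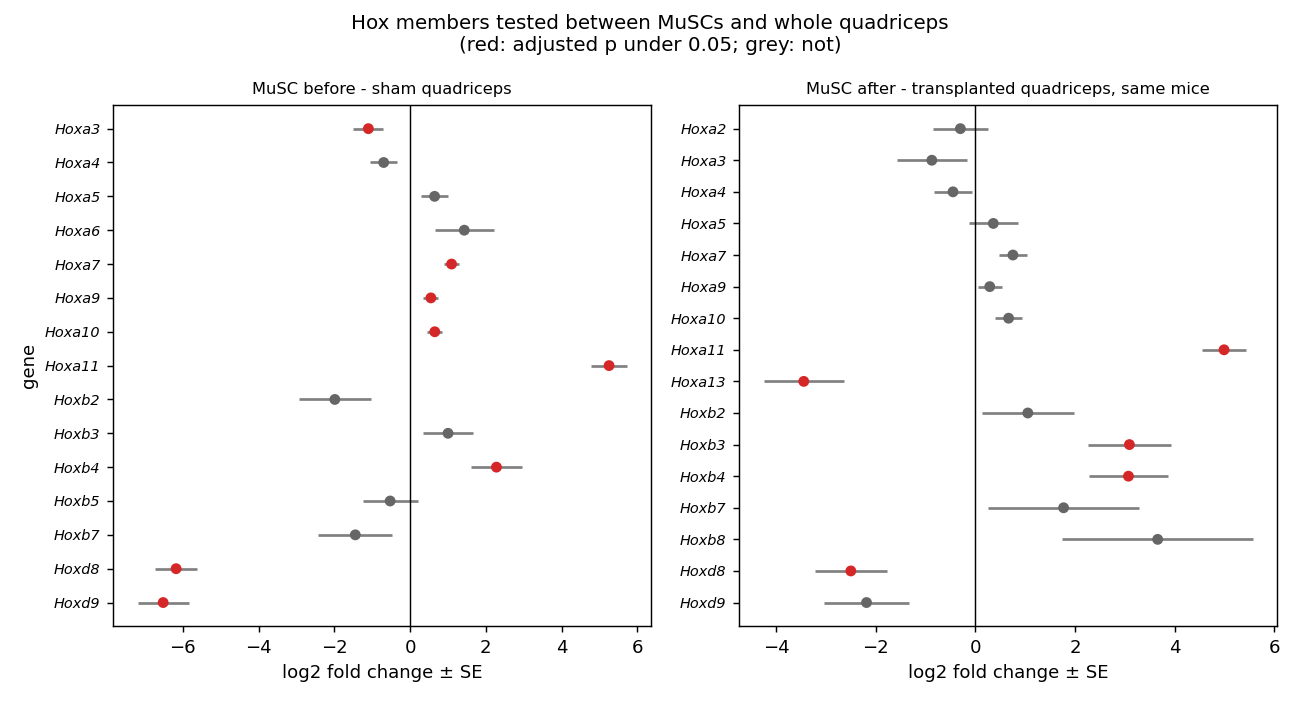
Log2 fold change with its standard error (horizontal axis) of the members shown (vertical axis) for MuSC before minus sham quadriceps (left) and MuSC after minus transplanted quadriceps of the same mice (right), red where the adjusted p is under 0.05. Hoxa11 lies at 5.25 and 4.99, and Hoxd8 at -6.18 and -2.5; Hoxd4, with 0 counts in MuSCs before, is left out.

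Genes that work with the Hox proteins were looked at through fixed lists. PBX, MEIS and PKNOX proteins are homeodomain partners that bind DNA with Hox proteins. In MuSC after against before, 0 of 9 cofactors passed (Meis2 had the smallest p, 0.69 ± 0.43), and in transplanted against sham muscle 0 of 8 (Meis2, -0.64 ± 0.38). For this list and those that follow, the counts between MuSCs and muscle stand beside a background of 68.5% of all genes called against sham muscle (35.1% higher, 33.4% lower) and 58.4% in the transplanted mice (31.6% higher, 26.8% lower). Against sham muscle, 6 of 9 cofactors were higher in MuSCs before and 2 lower, among them Pknox2, at 3.32 ± 2.37 against 78.0 ± 11.0 CPM (-4.54 ± 0.53), Pbx3 (1.98 ± 0.30), Pbx4 (0.54 ± 0.106 against 0.047 ± 0.0408 CPM) and Meis3 (2.13 ± 0.51). In the transplanted mice, 4 of 8 were higher in MuSCs after than in muscle and 1 lower, with Pknox2 at -5.10 ± 0.26, Meis2 at 3.59 ± 0.43, Meis3 at 2.41 ± 0.39 and Pbx3 at 1.97 ± 0.40. Pbx2 had the highest level of the list in MuSCs, at 23.6 to 47.5 TPM.

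The antisense neighbour of Hoxa11 was also higher in MuSCs than in muscle. Hoxa11os was at 6.47 ± 2.19 CPM in MuSCs before and 0.331 ± 0.0400 CPM in sham muscle (4.26 ± 0.47), and 2 of 4 tested were higher in MuSCs. The third called, Hoxb3os, was lower (-1.27 ± 0.46). In the transplanted mice 2 of 3 tested passed, both higher in MuSCs, with Hoxa11os at 4.04 ± 0.55. None of 4 passed in MuSC after against before (Hoxb3os, 1.51 ± 0.74) and none of 2 in transplanted against sham muscle (Hoxaas2, 0.59 ± 0.44).

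Polycomb proteins keep silent Hox genes closed and trithorax proteins keep active ones open. None of the 21 genes on this list passed in MuSC after against before or in transplanted against sham muscle (Kdm6b, 0.18 ± 0.09). Against sham muscle, 8 of the 21 were higher in MuSCs before and 5 lower, near the 68.5% called of all genes. Ezh2, the polycomb methyltransferase of dividing cells, was higher at 49.3 ± 14.98 against 7.67 ± 0.456 CPM (2.68 ± 0.27), and Ezh1, its counterpart of resting cells, lower at 10.8 ± 2.11 against 55.4 ± 5.39 CPM (-2.36 ± 0.22). Cbx7 was lower (-3.22 ± 0.31) and Phc2 higher (3.03 ± 0.32). In the transplanted mice 8 were higher and 3 lower, with Ezh1 at -2.63 ± 0.21, Cbx7 at -3.26 ± 0.29, Ezh2 at 3.21 ± 0.34 and Cbx2 at 2.88 ± 0.32.

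Retinoic acid and the caudal factors switch Hox genes on in the embryo. Cdx1, Cdx2 and Cdx4 were at 0 in all 15 libraries. None of the retinoic acid genes passed in MuSC after against before, where Crabp2, a retinoic acid carrier, had the smallest p of 5 tested (18.0 ± 12.3 against 4.62 ± 1.21 CPM, 1.96 ± 0.69, edgeR adjusted p = 0.873). None of 6 passed between transplanted and sham muscle, with the retinoic acid-degrading enzyme Cyp26b1 at 5.04 ± 3.14 against 14.7 ± 3.64 CPM (-1.56 ± 0.46, edgeR adjusted p = 0.686). Of 7 tested against sham muscle, 2 were higher in MuSCs before and 3 lower (68.5% called of all genes), led by Cyp26b1 (-7.22 ± 0.60), Rxra (-1.96 ± 0.23), Crabp2 (4.42 ± 0.54) and Rarb (-3.72 ± 0.48). In the transplanted mice 3 of 7 were higher and 3 lower (58.4% called of all genes), led by Rarb (-5.73 ± 0.58), Crabp2 (6.53 ± 0.96), Rarg (1.72 ± 0.28) and Rxra (-1.64 ± 0.36).

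Limb type regulators mark forelimb, hindlimb and migrating muscle precursors. Tbx4, a hindlimb factor, was at 1.18 to 3.97 TPM in MuSCs and Tbx5, its forelimb counterpart, at 0.03 TPM or less. None of 3 passed in MuSC after against before (Lbx1, 0.24 ± 0.61) and none of 6 between transplanted and sham muscle (Tbx5, -1.20 ± 0.36, edgeR adjusted p = 0.686). Of 6 tested against sham muscle, 4 were lower in MuSCs before, where 33.4% of all genes were lower: Meox2, which had no count in MuSCs before against 13.3 ± 3.71 CPM in sham muscle, Lbx1 (-1.68 ± 0.26), Meox1 (-4.05 ± 0.63) and Tbx5, at 0.0224 ± 0.0388 against 1.52 ± 0.724 CPM. In the transplanted mice Meox2 (0.0143 ± 0.0247 against 11.2 ± 1.83 CPM), Meox1 (-5.51 ± 0.65) and Lbx1 (-1.69 ± 0.57) were lower, 3 of 5 tested.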

How the data were processed

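RNA was measured by RNA-seq in 15 libraries, made with Trizol extraction and the NEBNext Ultra RNA kit, per the labels' protocols. The deposited tables give estimated counts, TPM and FPKM per gene, per the file headers: the authors' estimated counts are not all whole and were rounded here, their TPM values are scaled for gene length and library, and the authors' FPKM values were used only as an alternative and for column sums. Neither aligner nor quantifier is given in the sources used. The submitters' processing notes name GRCm38 and mm10, and no coordinates of the tables are printed. Another 3 columns match no sample label and were not used.

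Counts were tested with edgeR 4.0.16 (glmQLFit and glmQLFTest, filterByExpr with minimum count 10, TMM, 2-sided, Benjamini-Hochberg over all genes tested, threshold 0.05) in R 4.3.3, with DESeq2 1.42.0 as an alternative. The procedure was tested on simulated counts. Muscle was fitted with the deposited table as a term. CPM are counts scaled by the TMM library size; levels between genes are given in TPM. Counting limits and the floor of 3 counts cover counting error only. Fold differences set on this floor take the counts of the other group as exact. The mouse numbers pair MuSC libraries, since the labels call the transplantation autologous; deviations from group means correlated across genes at 0.33, 0.41 and -0.48 for mice 5, 6 and 11. Libraries of a group carry different mouse numbers and were treated as separate animals.

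The members and lists were chosen with earlier results of these data known. Some results on single genes, which are part of the counts and sums given, are not reported here. The other members are described by TPM; full statistics are given for the 5 members with the smallest p in each comparison and every member past the threshold, and for up to 4 called genes of each list or otherwise the gene with the smallest p. Alternatives were other scaling, no count filter, DESeq2, replicate block, naming form, single tables, FPKM, other TPM thresholds and leaving out each library. Some genes of the cluster neighbour list (3 of 12) are not in the tables and were not analysed here.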

Additional observations from a re-analysis of the deposited data

How the results depend on the processing

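No Hox member was called in either transplantation comparison under any alternative run, including leaving out each library. Genes called in MuSC after against before rose from 0 to 16 with DESeq2, 43 in the number-first libraries alone and 4 without after 5 and after 11 together (chosen after seeing the data), and stayed at 0 with the replicate block. Genes called in transplanted against sham quadriceps were 12 with no low-count filter, 6 with DESeq2, 1 in the 2-sham table alone, 41 in the 1-sham table alone, where the lone sham is assumed to vary like the other libraries, and 0 to 4 leaving out each library. The MuSC differences of Hoxb4 and Hoxb3 after against before turned to -0.19 and -0.04 without after 6 (ranges -0.19 to 1.45 and -0.04 to 2.07 over the single libraries left out). Members higher in MuSCs before than in sham muscle numbered 3 to 6 and, in the transplanted mice, 2 to 6 with 1 to 5 lower, leaving out each library; the cause was not tested. With the replicate block the transplanted mice gave 4 members higher and 3 lower, and Hoxd8 after against before was 3.61. Of 70 refits of named members after against before, 2 reversed, and none reversed in the other comparisons (69, 90 and 60 refits). At a threshold of 2 TPM in place of 1, 5 members in place of 8 were detected in transplanted muscle. With the filter on low counts and all 6 MuSC libraries, Hoxb6 to Hoxb9 were not tested after against before, because their counts sit mostly in 1 library. Against sham muscle, edgeR tested Hoxb7 in MuSCs before and did not call it (adjusted p = 0.214). In the transplanted mice edgeR tested Hoxb7 and Hoxb8 and called neither (adjusted p = 0.346 and 0.14). Genes with a group total of 0 are limited by the floor of 3 counts.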
